A study of Mus musculus with 6 samples.

Results

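The genes described here encode the receptors through which blood cells read growth factors and cytokines: the receptor tyrosine kinases Kit and Flt3, the chains of the interleukin, colony-stimulating factor and erythropoietin receptors, and the TGF-β receptors Tgfbr1 and Tgfbr2. They were chosen by name, 32 symbols in all, and 30 of them had a row of their own on the arrays, out of 19938 genes tested. The chains Il2rg and Il11ra1 had no row under a single symbol in the annotation table and were not analysed here. The arrays (Affymetrix Mouse Gene 1.0 ST) measured RNA of mast cells grown from bone marrow of C57BL/6J mice, either wild type (WT) or lacking miR-155 (miR-155 KO, also written miR-155-/- in the labels), with 3 independent cultures and 3 arrays per genotype. Cells of both genotypes grew for 5 weeks with 0.5 ng/ml IL-3 plus 1 ng/ml SCF, were loaded overnight with anti-DNP IgE (0.2 µg/ml) and then met the antigen DNP-HSA (20 ng/ml) for 1 h. No unstimulated cells were among the 6 arrays, so every value describes cells after antigen. The labels give neither the allele behind the knockout nor the age or sex of the donor mice.

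In culture mast cells depend on 2 of these receptors for growth and survival. KIT is the receptor for stem cell factor (SCF) and signals through its own kinase domain. The IL-3 receptor pairs the ligand-binding chain Il3ra with a shared β chain, which the GM-CSF and IL-5 receptors also use. Most of the other chains lack a kinase and rely on JAK kinases and STAT transcription factors, whereas the TGF-β receptors are serine/threonine kinases that act on SMAD proteins. In mast cells TGF-β is known as a restraint on growth and IgE receptor signalling.

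The microRNA that names the KO genotype is printed here, and the capitals mark bases 2 to 8, the seed that pairs with target transcripts. The sequence is RefSeq's for mouse build GRCm38.p6, on the plus strand at chr16:84714143-84714165.

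mmu-miR-155-5p: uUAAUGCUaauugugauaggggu

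On the arrays the row of its gene Mir155 lay below background in both genotypes, at 2.99 ± 0.15 (WT) and 2.86 ± 0.08 (KO), and so checks neither the deletion nor the labels. Here and below, values are log2 intensities, and a pair of means ± SD (n = 3 each) gives WT before KO. Background was set here as the level below which 95% of 1027 olfactory receptor genes lay, a log2 intensity of 3.39. Levels of different genes on an array depend on their probes as well as on the RNA, so the order of levels below is approximate.

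All 6 arrays carried the markers Fcer1a, Cpa3 and Tpsb2 at log2 intensities of 11.95 or more. Of 15 measured mast cell markers 13 were above background and 0 passed between genotypes by limma, with 4 at an unadjusted p under 0.05 (12.7% of all genes). Their median difference was 0.10 (log2, KO minus WT), and 11 of the 15 were positive. Of the markers of other cells, those above background were 6 of 12 for macrophages (not C1qa, C1qb, Mrc1, Cd14, Cd163 or Lyz2) and 5 of 10 for T and NK cells. They were 5 of 7 for basophils and eosinophils, 5 of 11 for dendritic cells and 6 of 9 for stem and progenitor cells. The remaining lists had 1 of 12 for neutrophils, 3 of 8 for B cells, 4 of 7 for erythroid cells and megakaryocytes and 4 of 11 for stromal cells. The first principal component, with 48.3% of the variance, separated the genotypes, with KO replicate 1 farthest out; the other KO arrays were at 5.36 and 7.31 on it, the WT ones at -19.5 to -10.6.

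Of the 30 receptor genes 20 lay above background, against 61.7% of all genes, and 7 stood among the top 5% of all genes by level. Kit led them. WT replicates 1, 2 and 3 read 11.72, 11.85 and 12.09 and the KO replicates 11.71, 11.92 and 11.82 (log2), above 99.8% of genes. Next came the near-identical β chains of the IL-3, GM-CSF and IL-5 receptors. Csf2rb read 11.63, 11.64 and 11.72 in WT and 11.43, 11.69 and 11.52 in KO, and Csf2rb2, the copy that serves IL-3 alone in mice, 11.50, 11.69 and 11.60 against 11.34, 11.63 and 11.50. The genotypes overlapped for all 3 of these genes. Csf2rb and Csf2rb2 are close copies, and how far their probe sets tell them apart was not tested.

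**Figure D1:**
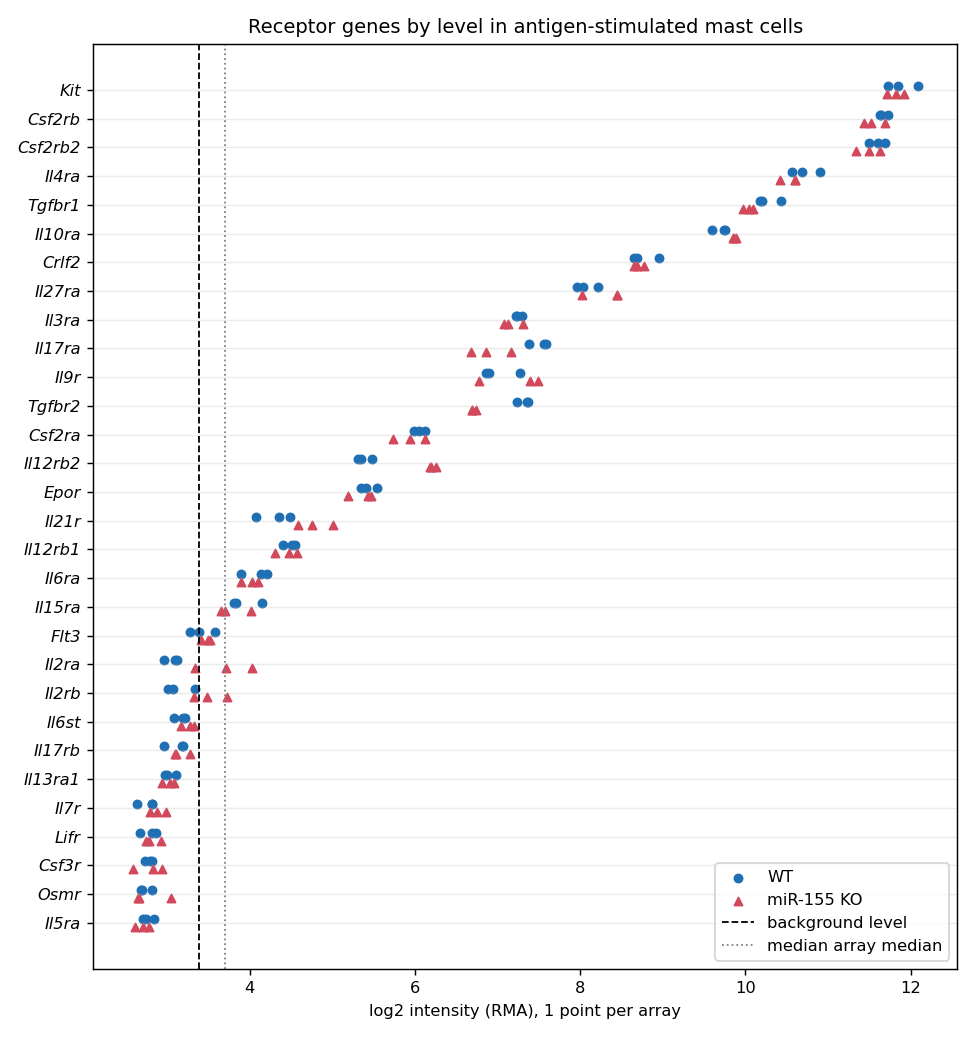
Log2 intensity of the 30 receptor genes, 1 point per array, ordered by mean level; circles are WT, triangles miR-155 KO, the dashed line is the background level of 3.39 and the dotted line the median of the array medians. Kit, Csf2rb and Csf2rb2 lie at the top between 11.34 and 12.09, and 10 genes lie at or below background.

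Between genotypes 2 of the 30 receptor genes passed the test (limma, Benjamini-Hochberg adjusted p under 0.05 over all 19938 genes): Il12rb2 rose and Tgfbr2 fell in miR-155 KO. Among all genes 0.507% rose and 0.316% fell. At an unadjusted p under 0.05 there were 7 receptor genes (23.3%, against 12.7% of all genes), and for 7 the KO arrays did not overlap the WT arrays (23.3%, against 17.2%). The median difference of the 30 genes was -0.02 and that of all genes -0.01 (log2, KO minus WT). Among genes above background the median size of the difference was 0.13 for the receptor genes and 0.12 for all genes.

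**Figure D2:**
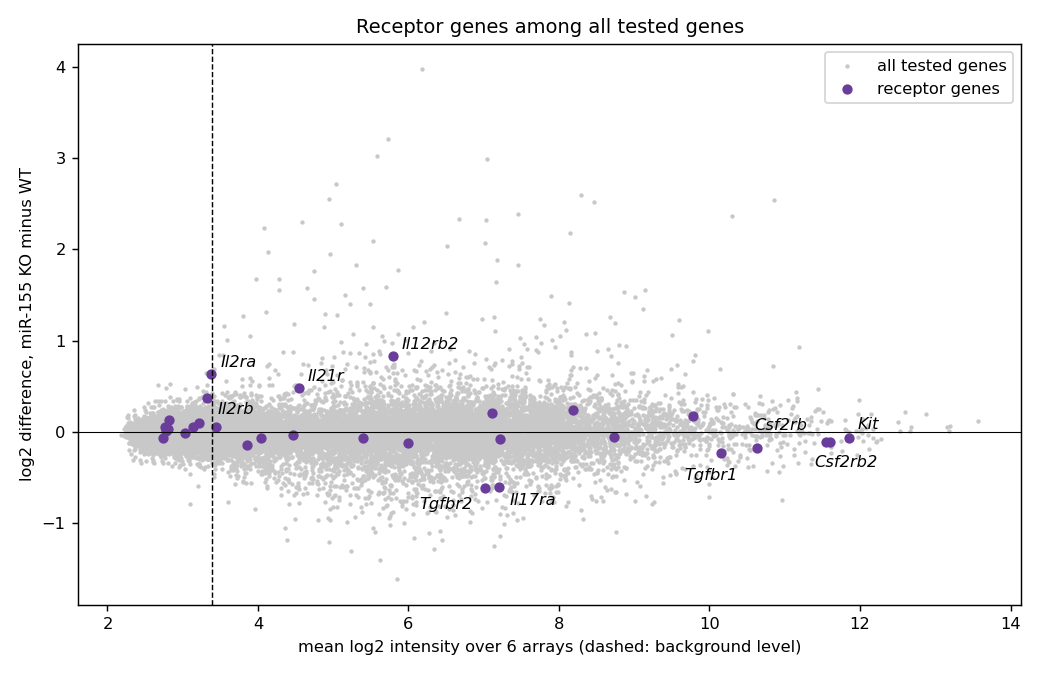
Mean log2 intensity over 6 arrays (horizontal) against the log2 difference, miR-155 KO minus WT (vertical), for the 19938 tested genes in grey and the 30 receptor genes in purple, with the background level dashed. Il12rb2 stands highest and Tgfbr2 and Il17ra lowest among the receptor genes, while the 3 most abundant ones lie close to 0.

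The 2 receptor genes that changed are shown first by the 250 bases before an annotated start of each (RefSeq, GRCm38.p6, minus strand, 5′ to 3′): Il12rb2 at chr6:67376189-67376438 and Tgfbr2 at chr9:116175364-116175613. For a gene with several annotated starts, the window at the lowest coordinate was taken. Capitals mark matches, on either strand, to TTCNNNGAA (the STAT motif), GATAA (GATA) or TGANTCA (AP-1), 3 motifs bound by factors of cytokine and mast cell signalling. The motifs did not overlap each other here.

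Il12rb2: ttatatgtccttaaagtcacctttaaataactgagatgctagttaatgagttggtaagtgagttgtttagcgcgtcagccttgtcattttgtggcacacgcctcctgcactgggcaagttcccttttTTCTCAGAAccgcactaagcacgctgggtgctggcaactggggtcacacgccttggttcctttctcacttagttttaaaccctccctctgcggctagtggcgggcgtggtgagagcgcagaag
Tgfbr2: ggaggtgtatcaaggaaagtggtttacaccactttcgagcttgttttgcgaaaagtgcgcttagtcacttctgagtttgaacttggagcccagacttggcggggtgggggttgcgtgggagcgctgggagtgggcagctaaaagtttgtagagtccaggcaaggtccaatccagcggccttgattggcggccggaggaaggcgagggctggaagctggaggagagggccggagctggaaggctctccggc

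The Il12rb2 window held 1 STAT match and the Tgfbr2 window held none of the 3 motifs. A STAT match was found in 7.02% of all 32851 windows of this length, a GATA match in 22.6% and an AP-1 match in 6.75%. Among the 26 receptor genes with a window, 3 held a STAT match (Csf2rb2, Il12rb2 and Il7r), 6 a GATA match and 3 an AP-1 match. A receptor gene was counted if any of its windows matched, so these counts of genes and the shares of windows are in unlike units. These are matches of letters and say nothing about binding.

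Il12rb2 encodes the signalling chain of the IL-12 receptor, best known from T and NK cells, and was the receptor gene with the lowest p. The WT replicates read 5.31, 5.48 and 5.35 and the KO replicates 6.25, 6.19 and 6.18 (log2). The KO arrays lay close together, all above every WT array, and KO replicate 1 did not stand apart from the other KO replicates. Il12rb2 rose from 5.38 ± 0.09 to 6.21 ± 0.04, a difference of 0.83 (SE 0.08, 1.78-fold, 95% interval 0.64 to 1.02, adjusted p = 0.00626). Its adjusted p was 0.0508 without WT replicate 1 and at most 0.0388 without any other array. When all 35557 rows of the value table were tested, named or not, it was 0.0666.

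Its partner Il12rb1, which binds IL-12 together with it and is shared with the IL-23 receptor, was low in both genotypes, at 4.49 ± 0.07 and 4.45 ± 0.13 (difference -0.04, SE 0.10, adjusted p = 0.941). The ligand genes Il12a and Il12b lay at or below background. Of 10 measured markers of T and NK cells, 5 of them above background, 0 passed by limma and 0 had an unadjusted p under 0.05 (12.7% of all genes). Their mean level was 3.30 to 3.44 in WT and 3.36 to 3.45 in KO arrays, and the log2 of their summed intensity 6.69 to 6.85 and 6.75 to 6.90. The part of such cells in the Il12rb2 difference was not tested. In RNA from a whole culture, more cells with a transcript and more transcript per cell cannot be told apart.

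Tgfbr2 encodes the ligand-binding TGF-β receptor, which recruits and activates Tgfbr1. The WT replicates read 7.23, 7.36 and 7.37 and the KO replicates 6.69, 6.74 and 6.69. All KO arrays lay below all WT arrays, with a narrow spread in both genotypes. Tgfbr2 fell from 7.32 ± 0.08 to 6.71 ± 0.03, a difference of -0.61 (SE 0.08, 1.53-fold lower in KO, 95% interval -0.80 to -0.43, adjusted p = 0.0179). The call was lost without WT replicate 1, 2 or 3 (adjusted p = 0.0583, 0.0780 and 0.0771), without KO replicate 3 (0.0667) and over all rows of the table (0.0979), while the difference stayed between -0.66 and -0.59 in the 6 fits without 1 array.

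Tgfbr1, the signalling partner, was abundant and also lay lower on every KO array. It read 10.20, 10.18 and 10.43 in WT and 10.04, 10.09 and 9.97 in KO, a difference of -0.23 (SE 0.10, unadjusted p = 0.0379, adjusted p = 0.348), which did not pass. Of 11 further genes of TGF-β signalling 0 passed by limma and 2 had an unadjusted p under 0.05 (12.7% of all genes). Those were Skil, a SMAD repressor that TGF-β itself induces, at 0.44 (adjusted p = 0.207), and the transducer Smad3 at -0.32 (adjusted p = 0.215). Next by p was the inhibitory Smad6, near background, at 0.24 (adjusted p = 0.512). The ligand Tgfb1 was abundant, at 10.54 ± 0.15 in WT and 10.84 ± 0.10 in KO (adjusted p = 0.255).

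Macrophages also carry TGF-β receptors, and the macrophage marker list lay lower on every KO array. Its mean level was 4.08 to 4.22 in WT and 3.77 to 3.98 in KO arrays, and the log2 of its summed intensity 9.73 to 9.94 and 8.90 to 9.40. Of 12 measured markers 6 were above background, 1 fell (0.316% of all genes fell) and 11 did not pass. The one that fell was the chemokine receptor gene Cx3cr1 at -0.95 (adjusted p = 0.0280, passing in 1 of the 6 fits without 1 array, highest 0.0911). Cd68 was also well above background, at 8.46 ± 0.08 and 8.10 ± 0.44, and Csf1r, Adgre1, Ccr2 and Marco were just above it. The log2 sum of the 11 dendritic cell markers was also lower on every KO array, at 8.11 to 8.19 in WT and 7.89 to 8.07 in KO. Their mean level overlapped, at 3.74 to 3.79 in WT and 3.68 to 3.75 in KO. The median difference was -0.04, and 4 of the 11 were positive. Of these markers 0 passed by limma and 3 had an unadjusted p under 0.05 (12.7% of all genes). The log2 sum of the 9 stem and progenitor cell markers was higher on every KO array, at 11.16 to 11.41 in WT and 11.44 to 11.70 in KO. Their mean level overlapped, at 5.21 to 5.28 in WT and 5.17 to 5.25 in KO. Only 2 of the 9 differences were positive, with a median of -0.02. Of these markers 0 passed by limma and 2 had an unadjusted p under 0.05 (12.7% of all genes). The part of these cells in the Tgfbr2 difference was not tested.

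Il17ra, the common chain of the IL-17 receptors, differed as much as Tgfbr2 but with a wider spread. It read 7.59, 7.38 and 7.56 in WT and 6.67, 7.17 and 6.86 in KO. The groups did not overlap, with KO replicate 2 nearest to WT. The difference was -0.61 (SE 0.13, 95% interval -0.91 to -0.31) and missed the threshold at an adjusted p of 0.0821. It passed without KO replicate 2 (-0.74, adjusted p = 0.0389) and in none of the other alternatives. Il17rb, the chain that confers binding of IL-25, lay at background, at 3.11 ± 0.13 and 3.16 ± 0.10.

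**Figure D3:**
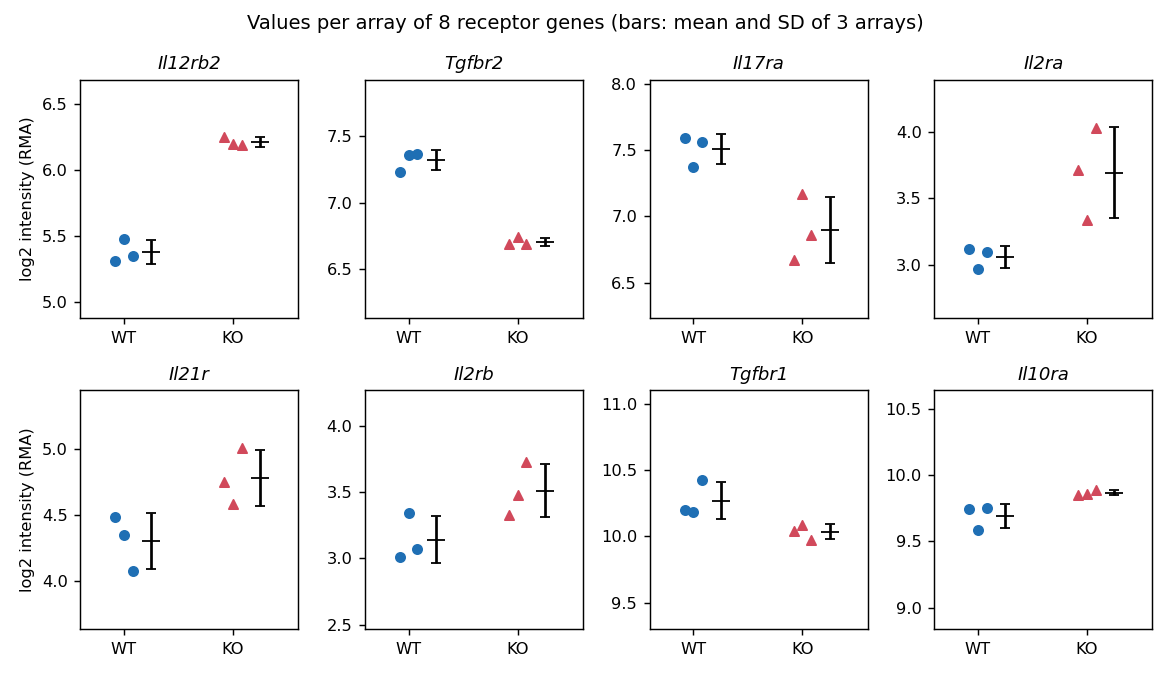
Log2 intensity per array of the 8 receptor genes with an unadjusted p under 0.05 or with groups that do not overlap (circles WT, triangles miR-155 KO, bars mean and SD of 3 arrays); every panel spans the same range of 1.8 log2 units. Il12rb2 and Tgfbr2 show tight, separate groups, whereas the KO arrays of Il17ra and Il2ra are spread.

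In the family around the common γ chain, 0 of 9 measured chains passed by limma and 3 had an unadjusted p under 0.05 (12.7% of all genes). These were Il2ra, Il2rb and Il21r, all higher in KO. Il2ra, the α chain that gives the IL-2 receptor its high affinity, read 3.12, 2.96 and 3.09 in WT and 3.71, 3.34 and 4.03 in KO. All WT arrays were below background and 2 of the KO arrays above it. The fitted difference was 0.63 (SE 0.16, adjusted p = 0.115) and passed only without KO replicate 2 (0.81, adjusted p = 0.0375). Set against the background level, the KO mean was 1.24-fold higher, with KO replicate 2 below that level. This value makes no allowance for the spread of the KO arrays (SD 0.34) and is not an assured minimum.

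Il2rb, the β chain shared by the IL-2 and IL-15 receptors, read 3.01, 3.34 and 3.07 in WT and 3.33, 3.48 and 3.73 in KO, near background throughout and overlapping at the margin (0.37, SE 0.13, adjusted p = 0.260). Il21r, the IL-21 receptor, read 4.49, 4.35 and 4.08 against 4.75, 4.58 and 5.00 without overlap (0.48, SE 0.14, adjusted p = 0.174). Signal this close to background compresses differences, so the sizes for Il2ra and Il2rb are uncertain.

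The abundant chain of the family was Il4ra, which binds IL-4 and, with a partner, IL-13. It read 10.56, 10.69 and 10.90 in WT and 10.42, 10.59 and 10.60 in KO (-0.18, SE 0.11, adjusted p = 0.580), with overlapping groups. Its IL-13 partner Il13ra1, a reported target of miR-155 in human macrophages, lay at background in both genotypes, at 3.03 ± 0.07 and 3.02 ± 0.07. Il9r, the IL-9 receptor, was well above background at 7.27, 6.90 and 6.86 in WT and 6.77, 7.39 and 7.48 in KO. KO replicate 1 was the lowest of the 6 Il9r values and the other KO arrays the highest, so the interval of the difference ran from -0.22 to 0.64 (adjusted p = 0.751).

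Crlf2, the TSLP receptor chain, was abundant too, with 8.66, 8.95 and 8.68 in WT and 8.69, 8.65 and 8.78 in KO (-0.06, SE 0.10). Il7r, which pairs with it to bind TSLP, lay at background (2.76 ± 0.10 and 2.89 ± 0.10). Il15ra, which presents IL-15, was just above it (3.93 ± 0.19 and 3.79 ± 0.20).

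Receptors for the factors that feed the cultures did not pass. Kit differed by -0.07 (95% interval -0.32 to 0.19, adjusted p = 0.889) and Il3ra, the IL-3-binding chain, by -0.08 (7.25 ± 0.04 against 7.17 ± 0.12, adjusted p = 0.807). All 5 chains of the β family had differences between -0.12 and -0.07, with 0 passing by limma and 0 at an unadjusted p under 0.05 (12.7% of all genes). Their 95% intervals all lay between -0.37 and 0.13. A repeated quantile normalization moved Csf2rb2 to -0.22 (adjusted p = 0.416) and Csf2rb to -0.16 (adjusted p = 0.526). Csf2ra, which binds GM-CSF, was moderate at 6.05 ± 0.07 and 5.93 ± 0.20. Il5ra, which marks eosinophils and their precursors, lay at background at 2.77 ± 0.07 and 2.70 ± 0.09. Flt3, the progenitor and dendritic cell relative of Kit, was at the margin of background at 3.42 ± 0.15 and 3.47 ± 0.05.

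Il10ra, the ligand-binding chain for IL-10, had a tight KO group. It read 9.74, 9.59 and 9.75 in WT and 9.85, 9.86 and 9.89 in KO, without overlap, yet the difference of 0.17 (SE 0.08) did not pass (adjusted p = 0.452) and was 0.09 (adjusted p = 0.748) after a repeated quantile normalization. Il10rb, which completes that receptor and was no member, differed by 0.37 (adjusted p = 0.248). Il27ra, a chain of the IL-27 receptor, read 8.04, 8.22 and 7.96 against 8.45, 8.44 and 8.02, with KO replicate 3 inside the WT range (0.23, SE 0.13, adjusted p = 0.538). Its partner Il6st (gp130), which all receptors of the IL-6 family use, lay at background in both genotypes (3.17 ± 0.07 and 3.26 ± 0.08).

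Il6ra was low at 4.08 ± 0.17 and 4.01 ± 0.10, and Lifr and Osmr, the chains for LIF and oncostatin M, lay at background with means between 2.73 and 2.82. Of the single-chain receptors, Epor, for erythropoietin, read 5.43 ± 0.10 and 5.36 ± 0.15, and Csf3r, for G-CSF, lay at background at 2.78 ± 0.04 and 2.79 ± 0.18. Over the 8 genes at or below background other than Il2ra and Il2rb, differences ran from -0.07 to 0.13 and the lowest adjusted p was 0.654.

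**Figure D4:**
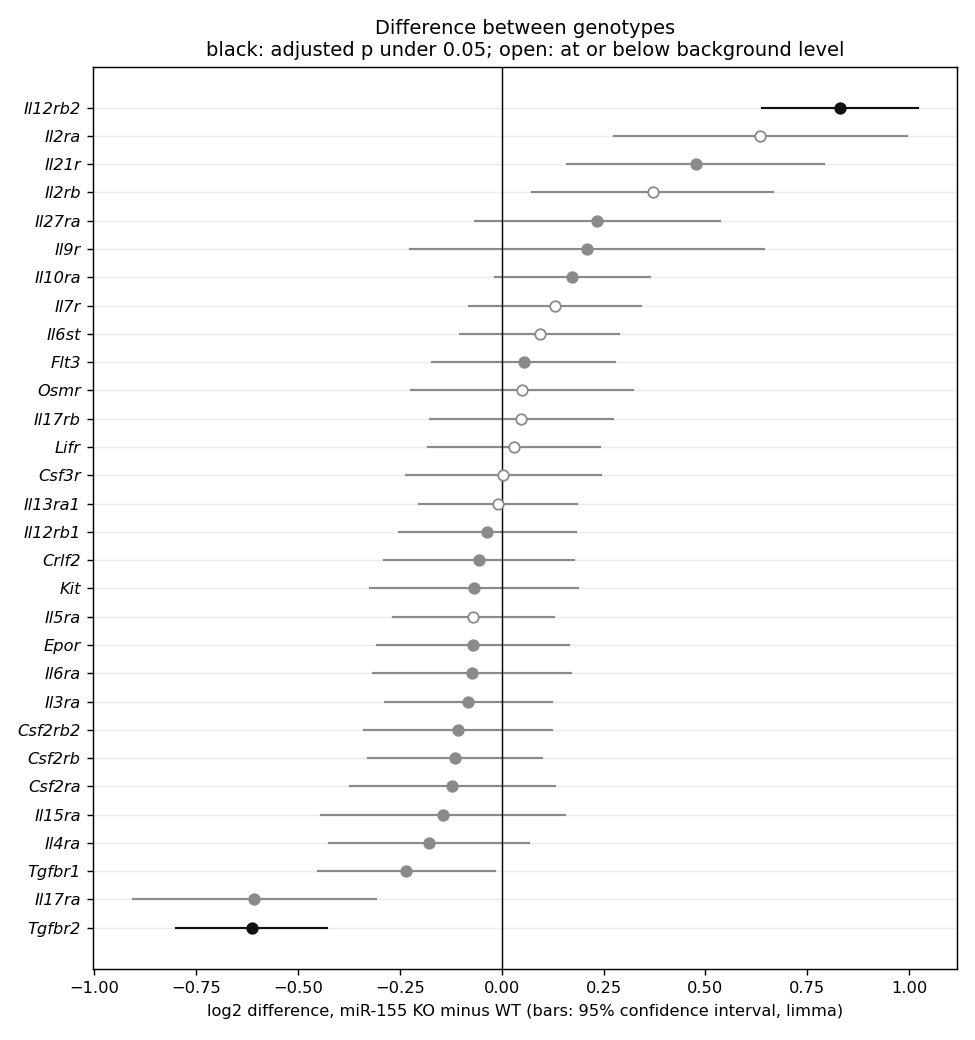
Log2 difference, miR-155 KO minus WT, of the 30 receptor genes with 95% confidence intervals from limma; black marks the 2 genes with an adjusted p under 0.05, open symbols the 10 genes at or below background. Il12rb2 at 0.83 and Tgfbr2 at -0.61 lie at the ends, and Kit, Csf2rb and Csf2rb2 lie between -0.11 and -0.07.

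Ligands and signalling genes of these receptors were read from lists. Of 29 ligand genes 2 rose, 0 fell and 27 did not pass, where 0.507% of all genes rose and 0.316% fell, and 16 lay at or below background. Il9, a mast cell growth factor, read 3.16, 3.10 and 3.19 in WT and 5.74, 4.32 and 5.32 in KO and rose (adjusted p = 0.0280). All 3 WT arrays lay below background and the KO arrays above it, so the KO mean was set against the background level. It lay 3.34-fold above that level, an estimate that makes no allowance for the spread of the KO arrays (SD 0.73). It is therefore not an assured minimum. The fitted Il9 difference was 1.98 (SE 0.30). Il13, a ligand of Il4ra with Il13ra1, read 7.06, 7.40 and 6.52 in WT and 10.27, 8.76 and 9.75 in KO and rose by 2.60 (SE 0.36, adjusted p = 0.0203). The groups were far apart for both, with a wide spread among the KO arrays. Neither passed without WT replicate 1, 2 or 3 or without KO replicate 3, where the highest adjusted p was 0.116 for Il9 and 0.0940 for Il13. Csf2, encoding GM-CSF, at 1.56 (adjusted p = 0.0654) and Il6 at 1.41 (adjusted p = 0.105) did not pass. The growth factor gene Il3 read 2.99 ± 0.13 and 3.63 ± 0.58, and Kitl, which encodes SCF, lay at background.

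Of 9 JAK and STAT genes 0 passed by limma and 2 had an unadjusted p under 0.05, a share to be read against 12.7% of all genes. These were Jak2 and Stat5a, which lie downstream of the β chain receptors. Jak2 read 9.20, 8.94 and 8.77 in WT and 10.63, 9.52 and 9.94 in KO (1.06, adjusted p = 0.0962), and Stat5a differed by 0.68 (adjusted p = 0.0924). Jak1, next by p, differed by 0.11 (adjusted p = 0.689). KO replicate 1, which lay apart, was the highest array for Il9, Il13, Jak2 and Stat5a. Without it the fitted differences were 1.67 for Il9 (adjusted p = 0.0311), 2.26 for Il13 (adjusted p = 0.0247), 0.76 for Jak2 (adjusted p = 0.108) and 0.51 for Stat5a (adjusted p = 0.155).

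Among 10 genes known to respond to STATs, 0 passed by limma, 6 had an unadjusted p under 0.05 (12.7% of all genes did) and the median difference was 0.30, against -0.01 over all genes. KO replicate 1 was the highest array for Bcl2l1, Cish and Pim1. Without it 5 of the 10 had an unadjusted p under 0.05, against 9.88% of all genes, and the median difference was 0.29. The lowest p were those of Bcl2l1, a survival gene, at 0.74 (adjusted p = 0.0935), Cish, a feedback inhibitor, at 0.64 (adjusted p = 0.0962) and Ccnd2, cyclin D2, at 0.34 (adjusted p = 0.0962). Of 16 adaptors, kinases and phosphatases 0 passed by limma and 6 had an unadjusted p under 0.05 (12.7% of all genes), led by Dok2 at 0.62 (adjusted p = 0.105), Lat2 at -0.44 (adjusted p = 0.127) and the phosphatase gene Ptpn6 at -0.34 (adjusted p = 0.146). All 16 lay above background, as did the 10 STAT-responsive and the 9 JAK and STAT genes, against 61.7% of all genes. The share of 12.7% thus includes dim genes, which these lists do not. Of 17 other chains of the same receptor classes 0 passed by limma and 1, Il10rb, had an unadjusted p under 0.05 (12.7% of all genes). The next by p were Pdgfra at -0.21 (adjusted p = 0.589), Il20rb at -0.21 (adjusted p = 0.597) and Csf1r at -0.12 (adjusted p = 0.627).

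**Figure D5:**
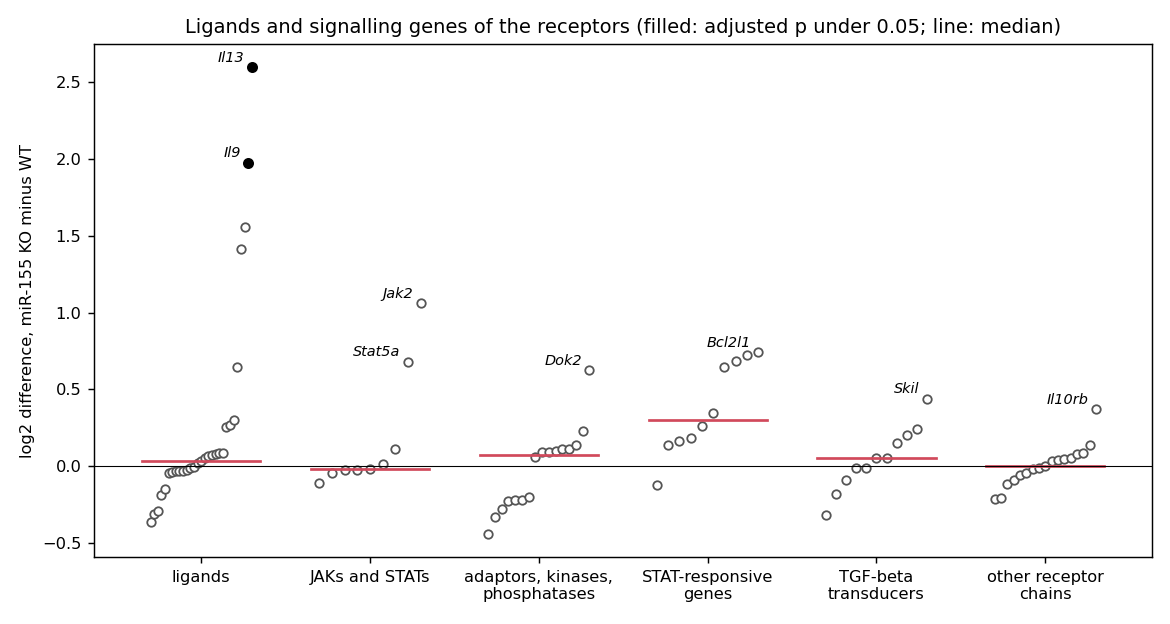
Log2 difference, miR-155 KO minus WT, of single genes in 6 lists of ligands and signalling genes, sorted within each list; filled points have an adjusted p under 0.05 and the line is the median. Il13 and Il9 are the filled points, and the STAT-responsive genes have the highest median, 0.30.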

How the data were processed

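RNA of 6 mast cell cultures was measured on 1 array each. The authors made the deposited values with RMA, per the submitters' processing notes, and the values were taken as log2 intensities from that label and their range. The RMA version and genome build are not given in the sources used here. This method corrects background, normalizes between arrays and summarises probes, which compresses differences of dim genes. No further normalization was applied. The number of arrays limits the precision.

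Of 35557 rows, 21789 carried 1 gene symbol, 1621 several and 12147 were not listed. The row with the highest mean stood for each of 19938 genes, and no receptor gene had a second row. All 30 receptor genes matched RefSeq by Entrez ID. The test was limma 3.58.1 under R 4.3.3 (lmFit and eBayes, genotype as the only term, two-sided, Benjamini-Hochberg over all genes); rose, fell and changed mean an adjusted p under 0.05. On simulated data for this comparison (19938 genes, 200 of them changed) it recovered 39.9% of changes of 0.5 log2 units and 98.95% of changes of 1, with 9.15% and 7.01% of calls false, so a change near 0.5 can fail to pass. The simulated noise was normal, independent between arrays and of equal spread in both genotypes, with no array apart as KO replicate 1 was. In the data, genes with a wide spread also failed at larger changes, such as Il6 at 1.41 (KO SD 0.76, adjusted p = 0.105). SE is the moderated standard error.

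All 6 values are given for genes with an unadjusted p under 0.05, separate groups or one of the 8 highest levels; for lists, passing genes and up to 3 others with the lowest p. Other genes named, and Il9r's single values, were chosen after their values were seen. Members and lists were chosen with earlier results of these data known. Target sites of miR-155 were not analysed here. Plots used matplotlib 3.10.9.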

Additional observations from a re-analysis of the deposited data

How the results depend on the processing

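Alternatives were a replicate block, median centring, repeated quantile normalization, leaving out dim genes, trend and robust priors, testing every row, averaging the rows of a gene and leaving out each array. Il12rb2 and Tgfbr2 kept their direction in all 13 and passed in 11 and 8. Testing every row left 0 receptor genes higher, 0 lower, and 4 rows higher and 0 lower in all; the cause was not tested. Without 1 array, 0 to 2 receptor genes passed as higher and 0 to 2 as lower, and 13 to 127 of all genes were higher and 2 to 40 lower. The lower genes numbered 63 in the fit reported, 95 without dim genes and 105 with trend and robust priors. Of the 28 receptor genes that did not pass, 10 changed sign in at least 1 alternative. With the array median as background 19 receptor genes lay above it, and 20 to 21 without 1 array.

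The labels do not state whether the same replicate numbers pair cultures. Deviations from the group means correlated at -0.01, -0.06 and 0.24 for numbers 1, 2 and 3. For unlike numbers they ran from -0.25 to 0.24. With 3 arrays per genotype these correlations cannot settle the pairing. With the replicate block 1 receptor gene was higher and 1 lower, and 112 and 87 of all genes. Signal near background limits what can be read for 10 receptor genes.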
